A study of Arabidopsis thaliana with 35 samples.

Results

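The genes described are Hop3 (AT4G12400), AT5G48570, Fes1A (AT3G09350), SGT1A (AT4G23570), Hsp70-2 (AT5G02490), Cpn60beta2 (AT3G13470), HSA32 (AT4G21320) and AT2G20560 of Arabidopsis thaliana. They are grouped here as Hsp70, chaperonin and co-chaperone genes, though HSA32 was listed apart from these classes, with Hsp100. These 8 of 13355 measured genes were chosen by name for their higher transcript levels at 28 °C than at 20 °C, so those changes are given as a description with no test. All 8 are on the array with 1 probe set each, and no filter on low values was applied. Seedlings of the accession RRS-7 were raised on plates for 5 days at 20 °C in a day of 16 h light and 8 h dark, lit with white LEDs at a photon flux of 120 µmol. At 7 h after lights on of day 5 they were moved to 28 °C or stayed at 20 °C. Roots, hypocotyls and cotyledons were dissected 24 h after the shift, at 7 h after lights on of day 6, or 3 h after it, at 10 h after lights on of day 5. The 6 groups at 28 °C and the 6 groups at 20 °C have 3 arrays each, except roots after 3 h at 28 °C with 2 arrays. Each replicate is a biological pool gathered over several harvest sessions, and all plants are of 1 accession with no transgene or mutation named in the labels.

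Hsp70 proteins bind unfolded stretches of other proteins and release them in a cycle driven by ATP. J proteins deliver substrates and start ATP hydrolysis, nucleotide exchange factors such as the Fes1 proteins reset the cycle, and Hop proteins hold Hsp70 and Hsp90 together so that a substrate can pass between them. Hsp90 works with co-chaperones such as SGT1 and FKBP-type prolyl isomerases, while the barrel-shaped chaperonins enclose whole proteins, Cpn60 in plastids and CCT in the cytosol. Many of these genes are known as targets of heat shock factors in plants.

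All values are deposited log2 RMA values, where 1 unit is a 2-fold difference in signal. They carry no detection call, and the level of 1 gene is not set against that of another gene, since probe sets differ in response. Array medians ran from 5.65 to 5.93 and replicates correlated at r = 0.992 to 0.997. RCA, which encodes the Rubisco activase of chloroplasts, had a median log2 level of 8.08 in roots against 13.42 in hypocotyls and 13.76 in cotyledons, and all 3 measured photosynthesis markers were lower in roots than in the shoot organs. Both measured root hair genes, EXPA7 and EXPA18, were higher on every root array than on any shoot array, as the organ labels say. A lower level in such bulk tissue cannot be told apart from fewer cells that hold the transcript.

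At 28 °C the 8 genes were higher in roots than in roots at 20 °C, by a median of 1.42 log2 units after 24 h and 1.47 after 3 h. The median over the 8 genes was 0.44 and 0.53 in hypocotyls and 0.89 and 0.79 in cotyledons, after 24 h and after 3 h, while the median over all genes lay between -0.02 and 0.03 in each of the 6 comparisons. In roots every 28 °C array was above every 20 °C array for 8 of 8 genes after 24 h and for 8 of 8 after 3 h, where 16.5% and 19.2% of all genes showed that separation. In hypocotyls 6 of 8 did so after 24 h (12.3% of all genes) and 6 of 8 after 3 h (17.5%), and in cotyledons 6 of 8 after 24 h (18.5%) and 6 of 8 after 3 h (14.6%). Levels at least 2-fold higher at 28 °C were seen for 7 of the 8 genes in roots after 24 h (0.771% of all genes) and for 8 after 3 h (0.449%), for 2 (0.157%) and 3 (0.225%) in hypocotyls, and for 4 (1.24%) and 4 (0.764%) in cotyledons. Since these contrasts chose the genes, nothing is read from the shares.

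**Figure D1:**
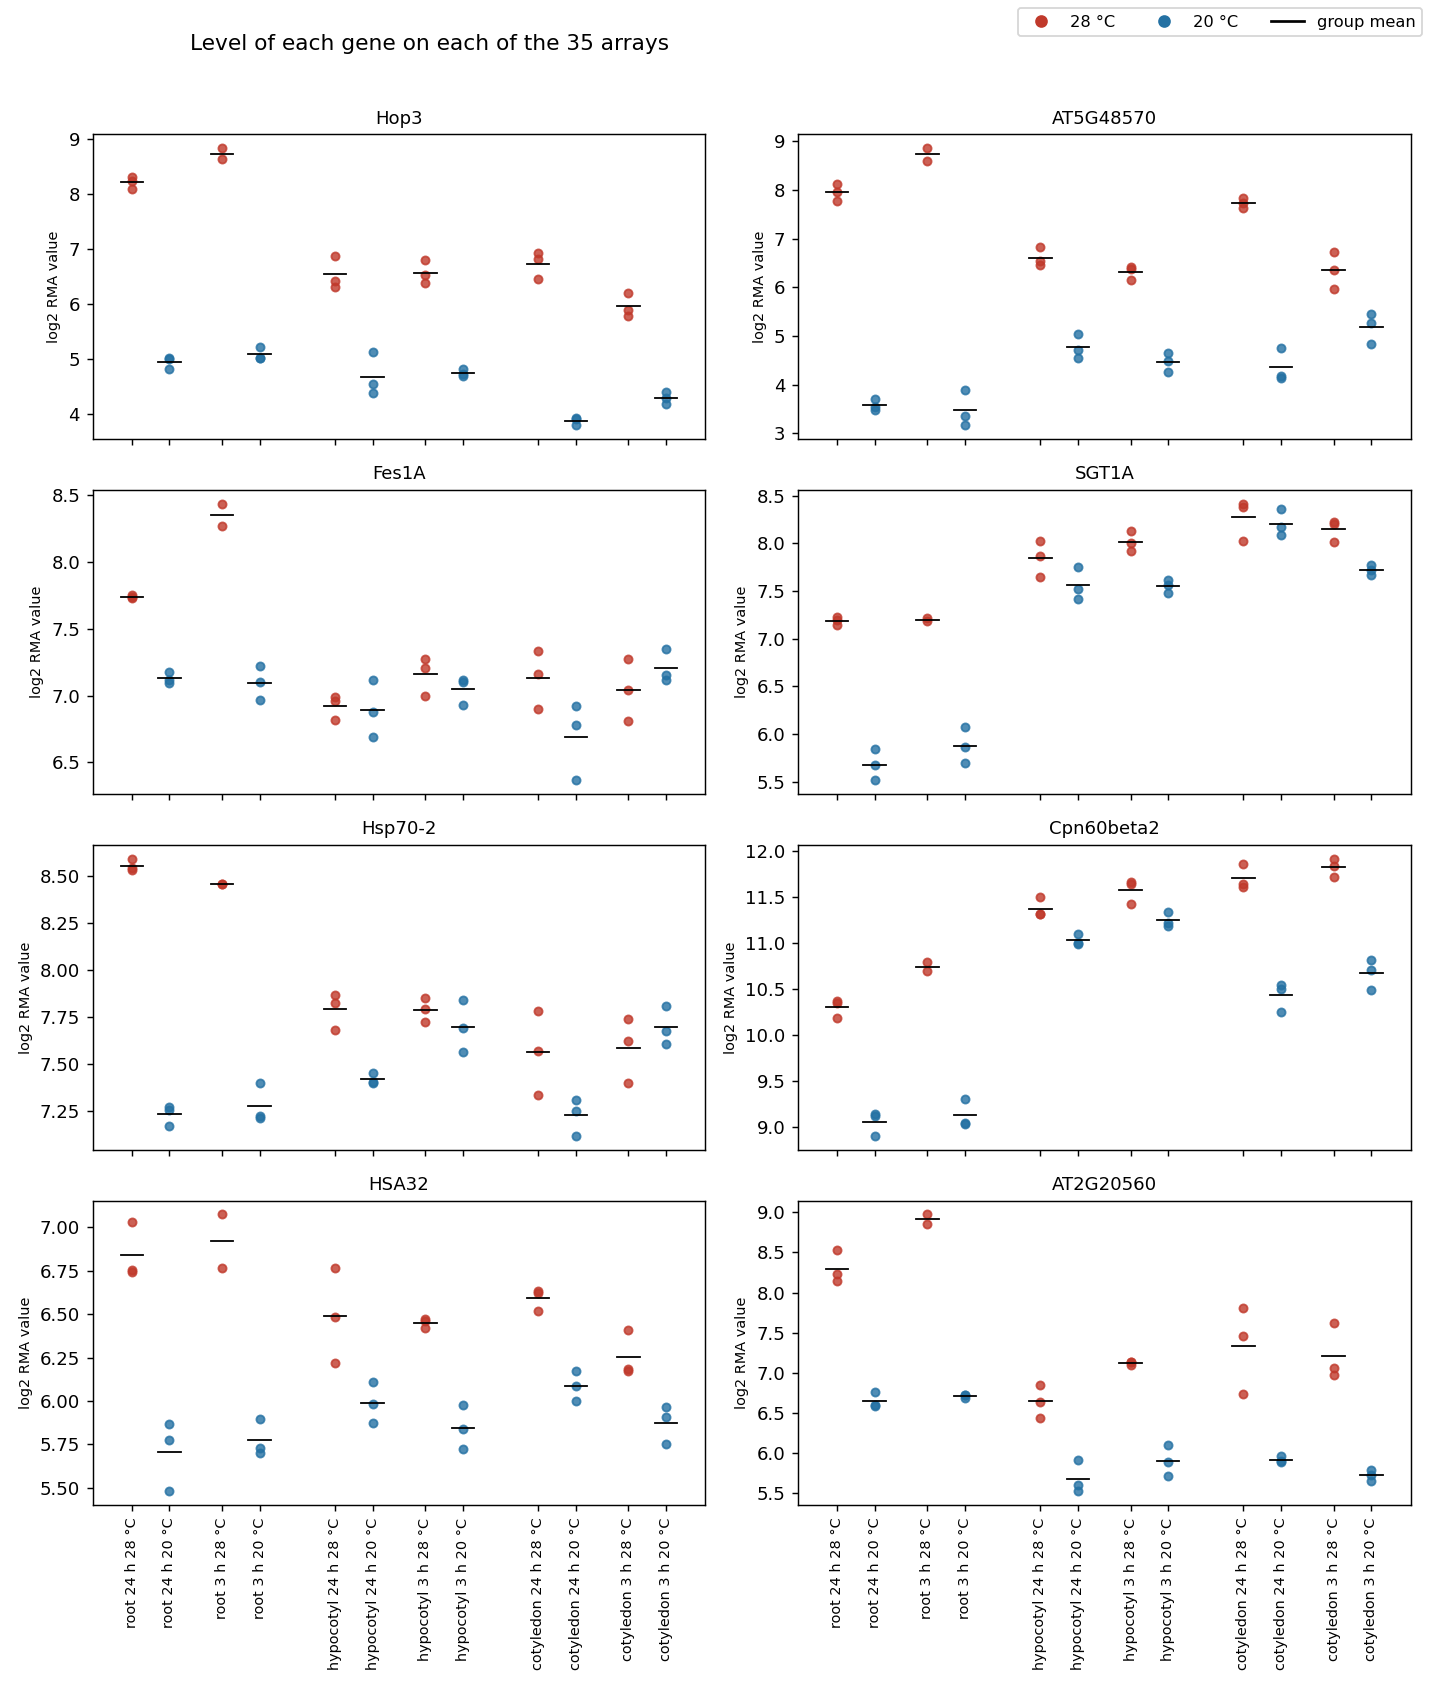
Log2 RMA level (vertical axes) of each of the 8 genes on all 35 arrays, 1 panel per gene, by organ and hours after the shift (horizontal axes), with 28 °C left of 20 °C in each pair and black bars at the group means. Points at 28 °C lie above those at 20 °C in all 6 pairs for Hop3, AT5G48570, Cpn60beta2, HSA32 and AT2G20560, and for Fes1A only in both root pairs.

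Hsp70-2, a cytosolic Hsp70 and so the central enzyme of the cycle, was clearly separated between temperatures in roots. Its root levels after 24 h were 8.53, 8.59 and 8.54 at 28 °C, against 7.17, 7.27 and 7.25 at 20 °C, a log2 change of 1.32 ± 0.10 (SE from the fit, as for all changes below) or 2.50-fold. After 3 h they were 8.46 and 8.46 at 28 °C, against 7.22, 7.21 and 7.40 at 20 °C (1.18 ± 0.11, 2.27-fold). The shoot organs showed far smaller differences. In hypocotyls Hsp70-2 had 7.82, 7.68 and 7.87 at 28 °C, against 7.45, 7.40 and 7.40 at 20 °C after 24 h (0.37 ± 0.10), whereas after 3 h the arrays overlapped (0.09 ± 0.10). In cotyledons after 24 h it had 7.78, 7.57 and 7.34 at 28 °C, against 7.12, 7.31 and 7.25 at 20 °C (0.34 ± 0.10). After 3 h the cotyledon change was -0.11 ± 0.10, with overlapping arrays, so in both shoot organs the temperatures separated after 24 h but not after 3 h. The warm means hardly differed between 24 h and 3 h, at 7.79 and 7.79 in hypocotyls and 7.56 and 7.59 in cotyledons. It was the cool means that were lower after 24 h, at 7.42 against 7.70 in hypocotyls and 7.22 against 7.69 in cotyledons.

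AT2G20560, which carries only a locus code in the annotation used and was listed here with the J proteins, was higher at 28 °C in all 6 comparisons. Root levels were 8.23, 8.53 and 8.14 at 28 °C, against 6.59, 6.59 and 6.76 at 20 °C after 24 h (1.65 ± 0.17, 3.14-fold). After 3 h they were 8.86 and 8.98 at 28 °C, against 6.72, 6.72 and 6.68 at 20 °C (2.21 ± 0.19, 4.63-fold). The shoot changes were smaller and close to each other in size. Hypocotyls had 6.43, 6.85 and 6.64 at 28 °C, against 5.60, 5.91 and 5.52 at 20 °C after 24 h (0.96 ± 0.17), and 7.10, 7.13 and 7.13 against 5.71, 6.10 and 5.88 after 3 h (1.22 ± 0.17). Cotyledons had 7.46, 7.80 and 6.74 at 28 °C, against 5.90, 5.88 and 5.96 at 20 °C after 24 h (1.42 ± 0.17), and 7.06, 7.62 and 6.96 against 5.72, 5.79 and 5.65 after 3 h (1.49 ± 0.17). The warm cotyledon arrays were the most scattered for this gene, with an SD of 0.55 after 24 h, yet none fell into the range of the 20 °C arrays.

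Fes1A, a nucleotide exchange factor of cytosolic Hsp70 known for its part in heat tolerance of Arabidopsis, separated the temperatures in roots and in no shoot group. In roots after 24 h its levels were 7.75, 7.73 and 7.74 at 28 °C, against 7.17, 7.10 and 7.12 at 20 °C (0.61 ± 0.13, 1.53-fold). After 3 h they were 8.44 and 8.27 at 28 °C, against 7.10, 6.96 and 7.22 at 20 °C (1.26 ± 0.14, 2.39-fold), the only comparison in which Fes1A was past 2-fold. Hypocotyl changes were 0.03 ± 0.13 after 24 h and 0.11 ± 0.13 after 3 h. In cotyledons after 24 h the levels were 7.16, 7.33 and 6.90 at 28 °C, against 6.78, 6.37 and 6.92 at 20 °C (0.44 ± 0.13), with the lowest warm array just under the highest cool one. After 3 h the cotyledon change was -0.16 ± 0.13.

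Hop3, the co-chaperone that links Hsp70 with Hsp90, had the second largest changes of the 8 genes in roots and the largest in hypocotyls after 24 h. Root levels were 8.31, 8.24 and 8.09 at 28 °C, against 5.01, 5.02 and 4.83 at 20 °C after 24 h (3.26 ± 0.15, 9.58-fold). After 3 h they were 8.63 and 8.83 at 28 °C, against 5.02, 5.03 and 5.23 at 20 °C (3.64 ± 0.17, 12.5-fold). Every warm root array was thus far above every cool one. Hypocotyls had 6.42, 6.88 and 6.32 at 28 °C, against 4.39, 5.13 and 4.55 at 20 °C after 24 h (1.86 ± 0.15), and 6.38, 6.81 and 6.52 against 4.73, 4.83 and 4.70 after 3 h (1.82 ± 0.15). Cotyledons had 6.82, 6.93 and 6.47 at 28 °C, against 3.93, 3.92 and 3.81 at 20 °C after 24 h (2.85 ± 0.15, 7.21-fold), and 6.20, 5.90 and 5.78 against 4.30, 4.19 and 4.41 after 3 h (1.66 ± 0.15). In cotyledons the warm arrays were higher after 24 h than after 3 h, without overlap, while the cool arrays were lower, so both sides widened the gap.

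AT5G48570, for which RefSeq lists the synonyms ROF2 and FKBP65 and which belongs to the FKBP-type prolyl isomerases that work with Hsp90, had the highest log2 change of all 13355 genes in roots after 24 h, in roots after 3 h and in hypocotyls after 3 h. Root levels were 7.78, 8.13 and 7.96 at 28 °C, against 3.54, 3.48 and 3.70 at 20 °C after 24 h (4.38 ± 0.18, 20.9-fold). After 3 h they were 8.86 and 8.60 at 28 °C, against 3.36, 3.89 and 3.17 at 20 °C (5.26 ± 0.21, 38.2-fold). No value here says whether the gene was above background in cool roots, so the fold is that of the RMA scale. Hypocotyls had 6.45, 6.82 and 6.53 at 28 °C, against 4.72, 5.04 and 4.55 at 20 °C after 24 h (1.83 ± 0.18, rank 4 among all genes), and 6.38, 6.15 and 6.42 against 4.26, 4.65 and 4.48 after 3 h (1.85 ± 0.18). Cotyledons had 7.84, 7.73 and 7.64 at 28 °C, against 4.17, 4.14 and 4.76 at 20 °C after 24 h (3.38 ± 0.18, 10.4-fold, rank 3), and 6.36, 6.72 and 5.97 against 5.26, 4.84 and 5.46 after 3 h (1.16 ± 0.18, 2.24-fold, rank 70). The cotyledon change after 3 h was the smallest of its 6 changes, and after 24 h it came next to the root changes.

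SGT1A is a co-chaperone of Hsp90 known, with its close relative SGT1B, from disease resistance and auxin signalling. Its 20 °C levels were low in roots and high in the shoot, and its warm changes were largest in roots. Root levels were 7.20, 7.23 and 7.14 at 28 °C, against 5.51, 5.67 and 5.84 at 20 °C after 24 h (1.51 ± 0.11, 2.85-fold), and 7.22 and 7.18 against 6.08, 5.69 and 5.86 after 3 h (1.32 ± 0.13, 2.50-fold). Hypocotyls had 8.13, 8.00 and 7.92 at 28 °C, against 7.57, 7.62 and 7.48 at 20 °C after 3 h (0.46 ± 0.11), while after 24 h the arrays overlapped (0.28 ± 0.11). Cotyledons had 8.02, 8.22 and 8.20 at 28 °C, against 7.67, 7.72 and 7.78 at 20 °C after 3 h (0.43 ± 0.11). After 24 h the cotyledon arrays overlapped, at 8.42, 8.38 and 8.03 against 8.36, 8.17 and 8.08 (0.07 ± 0.11). The separation in the shoot organs was seen at 3 h for SGT1A and at 24 h for Hsp70-2.

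Cpn60beta2, a beta subunit of the chloroplast Cpn60 chaperonin that folds imported and newly made plastid proteins, had large warm changes in roots and cotyledons and small ones in hypocotyls. Root levels were 10.18, 10.34 and 10.37 at 28 °C, against 9.14, 9.12 and 8.90 at 20 °C after 24 h (1.25 ± 0.10, 2.37-fold), and 10.69 and 10.79 against 9.03, 9.04 and 9.30 after 3 h (1.61 ± 0.11, 3.06-fold). Cotyledons had 11.85, 11.64 and 11.61 at 28 °C, against 10.49, 10.54 and 10.25 at 20 °C after 24 h (1.27 ± 0.10, 2.41-fold), and 11.71, 11.83 and 11.91 against 10.49, 10.71 and 10.81 after 3 h (1.15 ± 0.10, 2.22-fold). Root and cotyledon changes nearly coincided after 24 h, and after 3 h the root change was the larger. Hypocotyls had 11.49, 11.31 and 11.31 at 28 °C, against 10.99, 10.99 and 11.10 at 20 °C after 24 h (0.34 ± 0.10), and 11.63, 11.42 and 11.66 against 11.34, 11.18 and 11.21 after 3 h (0.33 ± 0.10), small differences without overlap.

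HSA32, which in Arabidopsis is known for sustaining acquired heat tolerance during recovery, had the narrowest range of change. Root levels were 6.74, 7.03 and 6.75 at 28 °C, against 5.48, 5.77 and 5.87 at 20 °C after 24 h (1.14 ± 0.12, 2.20-fold), and 6.77 and 7.08 against 5.70, 5.73 and 5.89 after 3 h (1.15 ± 0.13, 2.21-fold). In hypocotyls the change was 0.50 ± 0.12 after 24 h and 0.61 ± 0.12 after 3 h, and in cotyledons 0.51 ± 0.12 and 0.38 ± 0.12. None of the 6 pairs of groups overlapped, and both root changes were larger than any shoot change.

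**Figure D2:**
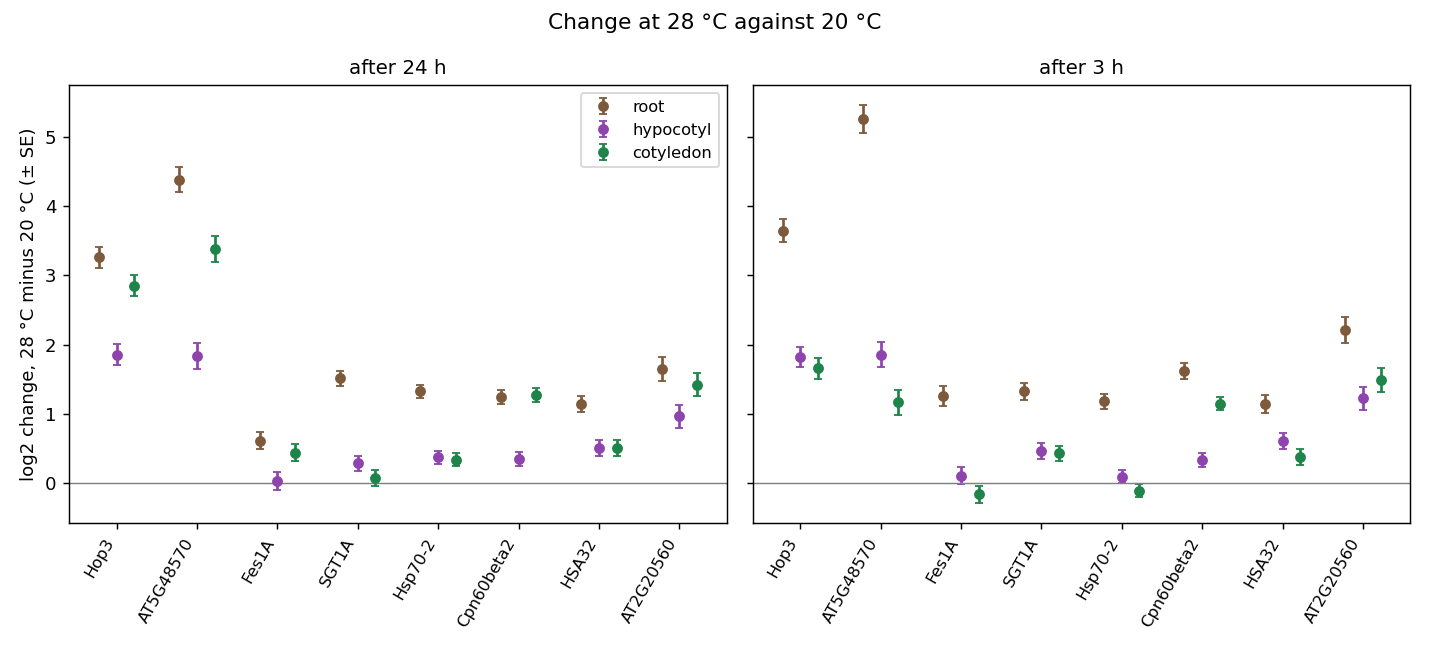
Log2 change at 28 °C against 20 °C with its standard error (vertical axes) for the 8 genes, after 24 h (left) and after 3 h (right), coloured by organ. Root changes are the highest of the 3 organs for every gene after 3 h, and after 24 h for every gene except Cpn60beta2, where cotyledons (1.27) and roots (1.25) nearly coincide.

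The warm change of roots exceeded that of cotyledons by more after 3 h than after 24 h for 7 of the 8 genes, SGT1A being the exception. For HSA32 the 2 gaps were close (0.77 ± 0.17 after 3 h and 0.63 ± 0.16 after 24 h). Those of Hsp70-2 (1.29 ± 0.14 and 0.99 ± 0.13) and AT2G20560 (0.72 ± 0.25 and 0.23 ± 0.24) also differed little for their errors. The difference between the 2 gaps was not tested for any gene. After 3 h the root change exceeded the cotyledon change for 8 of 8 genes, by 0.47 (Cpn60beta2) to 4.09 (AT5G48570) log2 units with a median of 1.09, and the hypocotyl change for 8 of 8, by 0.54 (HSA32) to 3.40 (AT5G48570) with a median of 1.12. After 24 h the gap between roots and cotyledons had a median of 0.52 and a range of -0.02 (Cpn60beta2) to 1.44 (SGT1A, against 0.90 after 3 h). Against hypocotyls it stayed wide after 24 h, from 0.58 (Fes1A) to 2.55 (AT5G48570) with a median of 0.93. Hypocotyl changes after 24 h lay below cotyledon changes for AT5G48570 (-1.55 ± 0.26), Hop3 (-0.99 ± 0.21), Cpn60beta2 (-0.93 ± 0.14) and Fes1A (-0.41 ± 0.18). The differences of the other genes were smaller than 2 SE, in both directions. After 3 h only Cpn60beta2 (-0.82 ± 0.14) and AT5G48570 (0.69 ± 0.26) differed by more than 2 SE, and the other genes had -0.27 to 0.27. These differences are descriptions, as root against shoot was part of the choice of genes.

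Between the times the changes shifted in cotyledons and in roots, with a median over the 8 genes of 0.29 in cotyledons and -0.38 in roots for the change after 24 h minus that after 3 h. The cotyledon change was larger after 24 h than after 3 h by 2.22 for AT5G48570, 1.19 for Hop3, 0.60 for Fes1A and 0.45 for Hsp70-2, and smaller for SGT1A (-0.35), while Cpn60beta2 (0.12), HSA32 (0.13) and AT2G20560 (-0.07) shifted little. For Fes1A, Hsp70-2 and SGT1A the cotyledon shift lay mainly on the cool side. Cool means after 24 h and 3 h were 6.69 and 7.21 for Fes1A and 8.20 and 7.72 for SGT1A, and warm means 7.13 and 7.04, and 8.28 and 8.15. In roots the change after 24 h was the smaller for AT5G48570 (-0.87), Fes1A (-0.65), AT2G20560 (-0.56), Hop3 (-0.38) and Cpn60beta2 (-0.37). Root changes of SGT1A (0.19), Hsp70-2 (0.14) and HSA32 (-0.01) differed less between times. Hypocotyl changes differed between times by -0.26 to 0.28, less than those of AT5G48570, Hop3, Fes1A and Hsp70-2 in cotyledons. The 24 h and 3 h harvests also differ in time of day and in age, which cannot be told apart here from the length of warming.

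Ordered by mean level over the 12 groups, warm roots came first for 6 of the 8 genes. For Hop3 the order opened with roots at 28 °C after 3 h (8.73) and after 24 h (8.21), without overlap between them or with the next group, cotyledons at 28 °C after 24 h (6.74). That group overlapped both warm hypocotyl groups (6.57 and 6.54), and warm cotyledons after 3 h (5.96) stood alone above all 6 cool groups. AT5G48570 opened with warm roots after 3 h (8.73), then warm roots and warm cotyledons after 24 h (7.96 and 7.73), which overlapped, and closed with both cool root groups (3.57 and 3.47) below every other group. The same organ therefore held both the highest and the lowest levels of AT5G48570.

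For AT2G20560 the order began with warm roots after 3 h (8.92) and after 24 h (8.30), 2 groups apart from each other and from the rest, while warm hypocotyls after 24 h (6.64) overlapped both cool root groups (6.70 and 6.65). Fes1A had only 2 of 11 neighbouring pairs apart, warm roots after 3 h (8.35) above warm roots after 24 h (7.74), and those above the other 10 groups, which ran on with overlap to 6.69. Hsp70-2 had warm roots after 24 h first (8.55), then warm roots after 3 h (8.46), both apart, and every other mean at 7.79 or lower. HSA32 had both warm root groups first (6.92 and 6.84), overlapping each other, and the second of them was apart from the next group, warm cotyledons after 24 h (6.59), though it overlapped warm hypocotyls after 24 h (6.49), where 1 array reached 6.77.

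SGT1A and Cpn60beta2 kept their shoot excess in the warm. All 8 shoot means of SGT1A, from 8.28 down to 7.55, lay above both warm root groups (7.20 and 7.19), which in turn lay above both cool root groups (5.88 and 5.68). The gap of warm roots below warm cotyledons was -1.09 after 24 h and -0.94 after 3 h for SGT1A, and -1.40 and -1.08 for Cpn60beta2. Cpn60beta2 was highest in warm cotyledons (11.82 after 3 h and 11.70 after 24 h) and lowest in cool roots (9.12 and 9.05), and the arrays of warm roots (means 10.74 and 10.30) overlapped those of cool cotyledons (10.67 and 10.43).

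The 20 °C arrays show where the genes are expressed without any temperature shift. Root against shoot was part of the choice of genes, and a low level in cool roots adds to the warm root change, so the differences of cool roots are given with their standard errors and no test. Cool hypocotyls against cotyledons, and the 24 h against the 3 h harvest, were tested, on arrays that are also the cool side of the changes above. Root levels were higher than cotyledon levels for 3 of the 8 genes and lower for 5, with a median of -0.22, and higher than hypocotyl levels for 3 and lower for 5, with a median of -0.24. Nothing is read from these counts. Organ differences were common among all genes, with 39.1% higher and 37.5% lower in roots than in cotyledons, and 35.9% and 24.5% than in hypocotyls, by limma's moderated test at a Benjamini-Hochberg adjusted p under 0.05. Of the 8 genes, 2 were higher and 1 lower in hypocotyls than in cotyledons by that test (30.2% and 36.1% of all genes, 66.3% in all).

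The root differences depend on the scaling. With each array centred on 4 reference genes, the median of all genes moved by -0.55 for roots against cotyledons and by -0.47 for roots against hypocotyls. Values under this centring are given below where they differ from the deposited scale by over 1.5 times or in sign.

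SGT1A and Cpn60beta2 had the largest organ differences of the 8 genes. Over 6 cool arrays per organ, SGT1A ran from 5.51 to 6.08 in roots with a median of 5.77, from 7.42 to 7.75 in hypocotyls with a median of 7.55, and from 7.67 to 8.36 in cotyledons with a median of 7.93. Its root level differed by -2.18 ± 0.08 from cotyledons and by -1.78 ± 0.08 from hypocotyls, and it was lower in hypocotyls than in cotyledons (-0.40 ± 0.08, limma adjusted p = 4.75e-05). Cpn60beta2 ran from 8.90 to 9.30 in roots (median 9.08), from 10.99 to 11.34 in hypocotyls (median 11.14) and from 10.25 to 10.81 in cotyledons (median 10.52). The 3 ranges did not overlap. Its root level differed by -2.05 ± 0.07 from hypocotyls and by -1.46 ± 0.07 from cotyledons, and it was higher in hypocotyls than in cotyledons (0.59 ± 0.07, limma adjusted p = 1.27e-08).

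AT5G48570, the gene with the steepest warm change in roots, was lowest there at 20 °C. It ran from 3.17 to 3.89 in roots (median 3.51), from 4.26 to 5.04 in hypocotyls (median 4.60) and from 4.14 to 5.46 in cotyledons (median 4.80), so every root array was below every shoot array. The difference of roots was -1.25 ± 0.13 from cotyledons and -1.09 ± 0.13 from hypocotyls, while both shoot organs overlapped (-0.16 ± 0.13, limma adjusted p = 0.291).

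Hop3 and AT2G20560 had their highest cool means in roots. Hop3 averaged 5.02 ± 0.12 in cool roots, 4.72 ± 0.25 in hypocotyls and 4.10 ± 0.24 in cotyledons (SD, n = 6 each, across both times). The root difference was 0.93 ± 0.11 from cotyledons and 0.30 ± 0.11 from hypocotyls, whose arrays overlapped those of roots, and with the reference centring these became 0.38 and -0.17. Hop3 was higher in hypocotyls than in cotyledons (0.62 ± 0.11, limma adjusted p = 5.59e-06). AT2G20560 averaged 6.68 ± 0.07 in cool roots, 5.79 ± 0.22 in hypocotyls and 5.82 ± 0.12 in cotyledons (SD, n = 6 each), and every root array was above every shoot array. Its differences were 0.86 ± 0.12 from cotyledons and 0.89 ± 0.12 from hypocotyls, which became 0.31 and 0.41 with the reference centring.

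The other 3 genes had root differences of at most 0.30 log2 units in size on the deposited scale, and larger ones with the reference centring. Hsp70-2 averaged 7.25 ± 0.08 in roots, 7.56 ± 0.18 in hypocotyls and 7.46 ± 0.27 in cotyledons (SD, n = 6 each), with root differences of -0.21 ± 0.07 from cotyledons and -0.30 ± 0.07 from hypocotyls that became -0.75 and -0.78. HSA32 in roots differed by -0.24 ± 0.08 from cotyledons and by -0.18 ± 0.08 from hypocotyls, which became -0.78 and -0.65. Fes1A averaged 7.11 ± 0.09 in roots, 6.97 ± 0.17 in hypocotyls and 6.95 ± 0.35 in cotyledons (SD, n = 6 each), and its root differences of 0.16 ± 0.09 and 0.14 ± 0.09 turned to -0.38 from cotyledons and -0.33 from hypocotyls. Between hypocotyls and cotyledons none of these 3 genes passed by limma on the deposited scale, with differences of 0.10 for Hsp70-2, -0.06 for HSA32 and 0.02 for Fes1A.

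**Figure D3:**
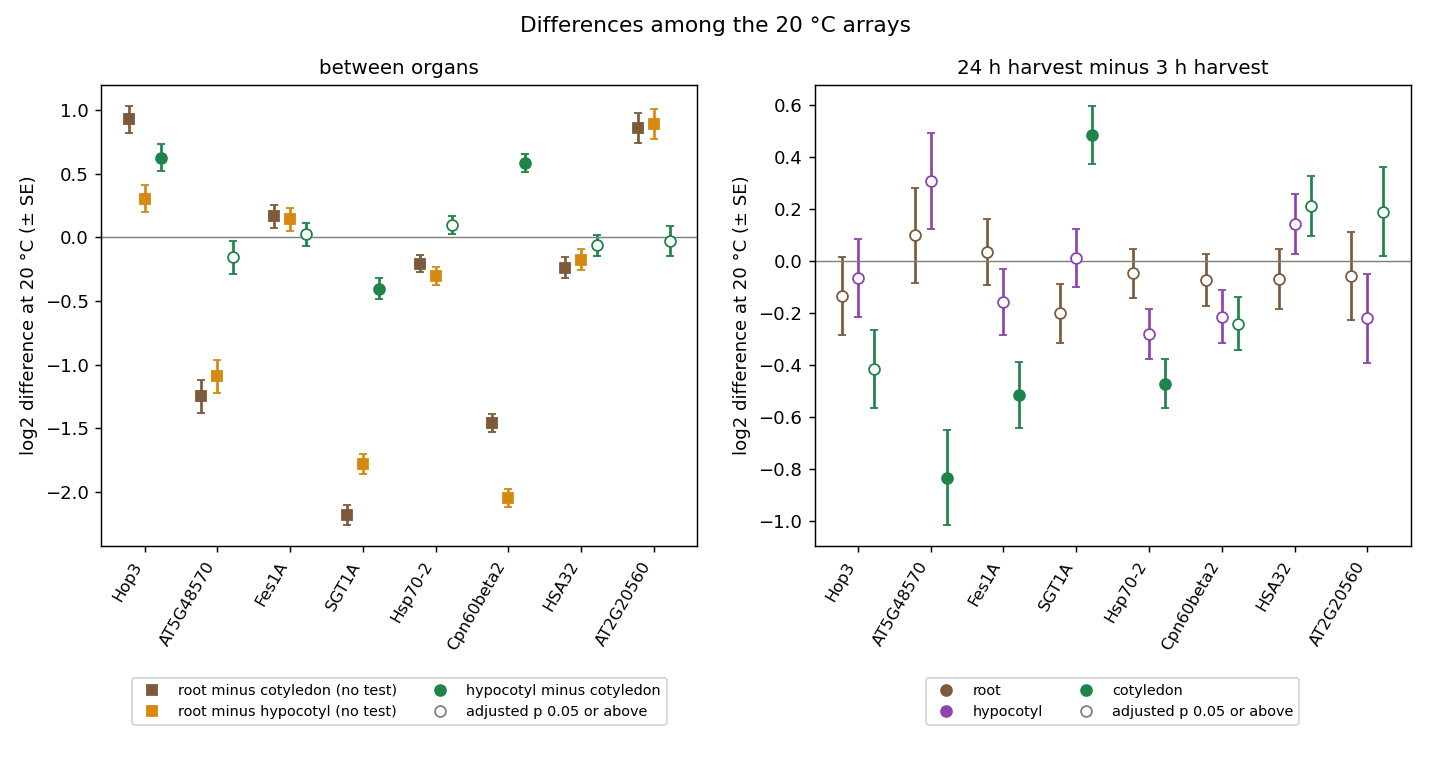
Log2 differences with standard errors (vertical axes) of the 8 genes among the 20 °C arrays: between organs (left) and between the 24 h and 3 h harvests in each organ (right). Squares are root differences, which were not tested. Filled circles passed at a limma adjusted p under 0.05 and open ones did not. The deep root deficits of SGT1A (-2.18 and -1.78) and Cpn60beta2 (-1.46 and -2.05) stand out on the left, and the only filled points on the right are those of cotyledons.

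Between the harvests at 20 °C, 4 of the 8 genes changed in cotyledons, where 17.6% of all genes did. AT5G48570 had 4.17, 4.14 and 4.76 after 24 h, against 5.26, 4.84 and 5.46 after 3 h, and fell by 0.83 (SE 0.18, limma adjusted p = 0.00105). Hsp70-2 had 7.12, 7.31 and 7.25 after 24 h, against 7.61, 7.67 and 7.81 after 3 h, and fell by 0.47 (SE 0.10, limma adjusted p = 0.000381). The 24 h and 3 h arrays of these genes did not overlap. Fes1A, with 6.78, 6.37 and 6.92 after 24 h against 7.35, 7.12 and 7.15 after 3 h, fell by 0.52 (SE 0.13, limma adjusted p = 0.00307), a call that was lost without replicate 2 of 24 h (-0.35, limma adjusted p = 0.0616). SGT1A rose instead, with 8.36, 8.17 and 8.08 after 24 h against 7.67, 7.72 and 7.78 after 3 h (0.48 ± 0.11, limma adjusted p = 0.00169). Hop3 missed the threshold (-0.41 ± 0.15, limma adjusted p = 0.0541), though its arrays did not overlap, and passed in 4 of the alternative fits (limma adjusted p of 0.0169 to 0.0451). Cpn60beta2 (-0.24 ± 0.10, limma adjusted p = 0.106) passed only without replicate 1 of 3 h (-0.33).

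In cool hypocotyls 0 of the 8 genes passed between the harvests by limma, with 2 at an unadjusted p under 0.05 (Hsp70-2 at -0.28 and Cpn60beta2 at -0.21) and 1.94% of all genes passing. In cool roots 0 of 8 passed and 0 were at an unadjusted p under 0.05, where 0.419% of all genes passed. The difference itself was tested for each pair of organs, and 5 of 24 such tests passed. The tests with roots set root against shoot, which was part of the choice of genes, so nothing is read from their passing. For SGT1A the harvest effect of roots minus that of cotyledons was -0.69 ± 0.16 (limma adjusted p = 0.00324, 10.2% of all genes passing). For AT5G48570 that of hypocotyls minus that of cotyledons was 1.14 ± 0.26 (limma adjusted p = 0.00555, 5.05% of all genes), and that of roots minus that of cotyledons was 0.93 ± 0.26 (limma adjusted p = 0.0164). The last of these was lost without replicate 3 of cotyledons at 3 h (0.80), replicate 1 (0.84) or 2 (0.82) of cotyledons at 24 h, or replicate 3 of roots at 3 h (0.78). The differences of Fes1A (0.55 ± 0.18, limma adjusted p = 0.0449) and Hsp70-2 (0.42 ± 0.13, limma adjusted p = 0.0396) between roots and cotyledons were lost under both other scalings, at 0.53 and 0.49 for Fes1A and 0.41 and 0.37 for Hsp70-2. They were also lost in 8 of 12 fits without 1 array each, with values of 0.39 to 0.58 for Fes1A and 0.37 to 0.44 for Hsp70-2. For SGT1A the difference of hypocotyls from cotyledons passed only without replicate 2 of hypocotyls at 24 h (-0.57). No test between roots and hypocotyls passed (0.217% of all genes).

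The 8 genes belong to a wider set of 124 chaperone genes in 11 lists, written from general knowledge, of which 41 are among the measured genes, leaving 33 others. They comprise 1 cytosolic Hsp70, 2 Hsp110, 4 nucleotide exchange factors, 9 J proteins, 4 genes of Cpn60, Hsp60 and their partners, 8 CCT subunits and 5 co-chaperones of Hsp90. Listed genes for Hsp90 itself, organelle Hsp70 and heat shock factors are not among the named probe sets used here. These 33 genes were tested by limma in the warm comparisons. In roots after 24 h 6 rose and 6 fell (8.39% of all genes rose and 9.31% fell), and after 3 h 8 rose and 2 fell (5.38% and 5.35%). In hypocotyls 2 rose and 2 fell after 24 h (5.08% and 4.58%), and 3 rose and 10 fell after 3 h (6.99% and 7.65%). Cotyledons had 14 up and 2 down after 24 h (15% and 13.4%), and 6 up and 9 down after 3 h (10.3% and 12.1%).

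Some of these counts rest on single arrays or on the scaling. Without replicate 1 of warm roots after 3 h the 8 rises became 5, and the 2 falls there became 0 without replicate 2 of that group and 1 without replicate 3 of cool roots after 3 h. The 10 falls in hypocotyls after 3 h became 5 without replicate 1 of warm hypocotyls after 3 h, and the 2 after 24 h became 0 or 1 without replicate 1 or 2 of the warm group or replicate 2 or 3 of the cool group. Centring each array on the reference genes turned the all-gene split of calls from 47.4% to 77.2% higher in roots after 24 h, from 50.1% to 69.7% in roots after 3 h, from 52.6% to 66.9% and 47.7% to 71.4% in hypocotyls after 24 h and 3 h, and from 52.8% to 66.3% and 46.1% to 69.9% in cotyledons, while centring on the median gave 38.3% in cotyledons after 24 h.

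Among partners of Hsp70, a single gene of the Hsp110 list and a single J protein rose in all 6 comparisons. ATERDJ3B, which encodes a J protein in the lumen of the endoplasmic reticulum, averaged 10.19 ± 0.04 in warm roots against 9.23 ± 0.18 in cool roots after 24 h (SD, n = 3 each; log2 change 0.96 ± 0.09 SE), and its changes elsewhere were 1.18 in roots after 3 h, 0.62 and 0.66 in hypocotyls and 0.58 and 0.93 in cotyledons after 24 h and 3 h. AT4G16660, listed with Hsp110, rose by 0.70 and 1.14 in roots, 0.77 and 0.64 in hypocotyls and 0.73 and 0.98 in cotyledons, each after 24 h and after 3 h. Both genes thus rose in the shoot organs as well as in roots. AT3G09440, the other measured cytosolic Hsp70 of the list, rose in roots after 24 h (0.49 ± 0.11, limma adjusted p = 0.000799) and after 3 h (0.73 ± 0.12, limma adjusted p = 4.31e-05) and passed in no shoot comparison, where its changes were -0.28 to 0.01. The root change exceeded the hypocotyl change by 0.77 after 24 h (limma adjusted p = 0.000735) and 0.85 after 3 h (limma adjusted p = 0.000906).

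Of the Fes1A relatives, Fes1C rose in roots after 24 h (0.39 ± 0.10, limma adjusted p = 0.00673) and 3 h (0.51 ± 0.12, limma adjusted p = 0.00319). The calls were lost without replicate 3 of warm roots at 24 h (0.29) and without replicate 1 at 3 h (0.47). Fes1B changed in opposite directions in cotyledons at the 2 times. It averaged 6.91 ± 0.16 in warm cotyledons against 8.06 ± 0.02 in cool cotyledons after 24 h (SD, n = 3 each), a fall of 1.15 log2 units. After 3 h it averaged 8.62 ± 0.11 in warm against 8.32 ± 0.19 in cool cotyledons (SD, n = 3 each), a rise of 0.30 log2 units (limma adjusted p = 0.021) that was lost without replicate 2 (0.28) or 3 (0.22) of the cool group or replicate 1 of the warm group (0.24). Its root levels stayed between 4.19 and 4.56 as group means. AT4G28480, listed beside AT2G20560 among the J proteins, passed in none of the 6 comparisons, with changes of -0.20 to 0.14.

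Of the Hop3 relatives, Hop2 rose in roots after 24 h (0.42 ± 0.10, limma adjusted p = 0.00243), in roots after 3 h (0.56 ± 0.11, limma adjusted p = 0.000698) and in cotyledons after 24 h (0.42 ± 0.10, limma adjusted p = 0.00163). Hop1 fell in cotyledons after 3 h (-0.52 ± 0.11, limma adjusted p = 0.000443) and had -0.13 and -0.12 in roots after 24 h and 3 h, which did not pass. Its fall in hypocotyls after 3 h (-0.40) and its rise in cotyledons after 24 h (0.37) were each lost without 1 of several arrays (-0.35 to -0.37, and 0.29 to 0.32). Of the 3 Hop genes on the array, Hop3 had changes of 1.66 to 3.64 and its relatives none above 0.56. Hop3 was chosen for its warm change and its relatives were not, so nothing is read from this gap. AT3G12050, listed with the Hsp90 co-chaperones, rose in 5 of 6 comparisons, by 0.65 and 1.07 in roots after 24 h and 3 h, 0.47 in hypocotyls after 3 h, and 0.81 and 0.63 in cotyledons, with 0.18 in hypocotyls after 24 h that did not pass. SQN, a cyclophilin-type co-chaperone of Hsp90, rose in cotyledons after 24 h, with 5.85 ± 0.19 in warm against 5.04 ± 0.25 in cool cotyledons (SD, n = 3 each; 0.80 ± 0.12 SE), and had -0.29 to 0.24 elsewhere.

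Cpn60beta3, a plastid relative of Cpn60beta2, rose in both cotyledon comparisons and passed in no other, except in roots after 3 h without replicate 3 of cool roots (0.48). It averaged 7.75 ± 0.10 in warm against 6.55 ± 0.15 in cool cotyledons after 24 h (SD, n = 3 each; 1.19 ± 0.12 SE) and changed by 0.78 ± 0.12 SE after 3 h, while root changes were 0.02 and 0.37 and hypocotyl changes 0.00 and 0.06. Cpn60beta2 and Cpn60beta3 thus had like changes in cotyledons after 24 h (1.27 and 1.19) but differed in roots after 24 h (1.25 and 0.02), a difference between the genes that was not tested.

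The 8 measured CCT subunits, which make up the cytosolic chaperonin that folds actin and tubulin, had more falls than rises in 5 of the 6 comparisons. After 3 h 7 of 8 fell in cotyledons (median -0.53, with 12.1% of all genes falling), 7 in hypocotyls (median -0.41, 7.65%) and 2 in roots (median -0.20, 5.35%). After 24 h 6 fell in roots (median -0.35, 9.31% of all genes) and 2 in hypocotyls (median -0.15, 4.58%). In cotyledons after 24 h 0 fell, also at an unadjusted p under 0.05, and 4 rose (median 0.25, with 15% of all genes rising and 13.4% falling). The cool side moved as well, as 7 of the 8 were lower at 24 h than at 3 h in cool cotyledons (median -0.35, 10.7% of all genes lower). AT5G16070 had -0.72 ± 0.10 in cotyledons after 3 h and 0.54 ± 0.10 after 24 h, a difference of 1.26 ± 0.14. It was named for that 3 h change, the largest passing change of the CCT list, so these values are a description. The same difference was 0.99 for AT3G03960, 0.48 for AT1G24510 and 0.53 for AT5G20890, which were named by the same rule. With each array centred on the reference genes the falls became 6 in cotyledons and 5 in hypocotyls after 3 h, 0 in roots after 3 h, 2 in roots and 1 in hypocotyls after 24 h, and the rises in cotyledons after 24 h became 5. Without replicate 1 of warm hypocotyls after 3 h, 4 fell there in place of 7.

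**Figure D4:**
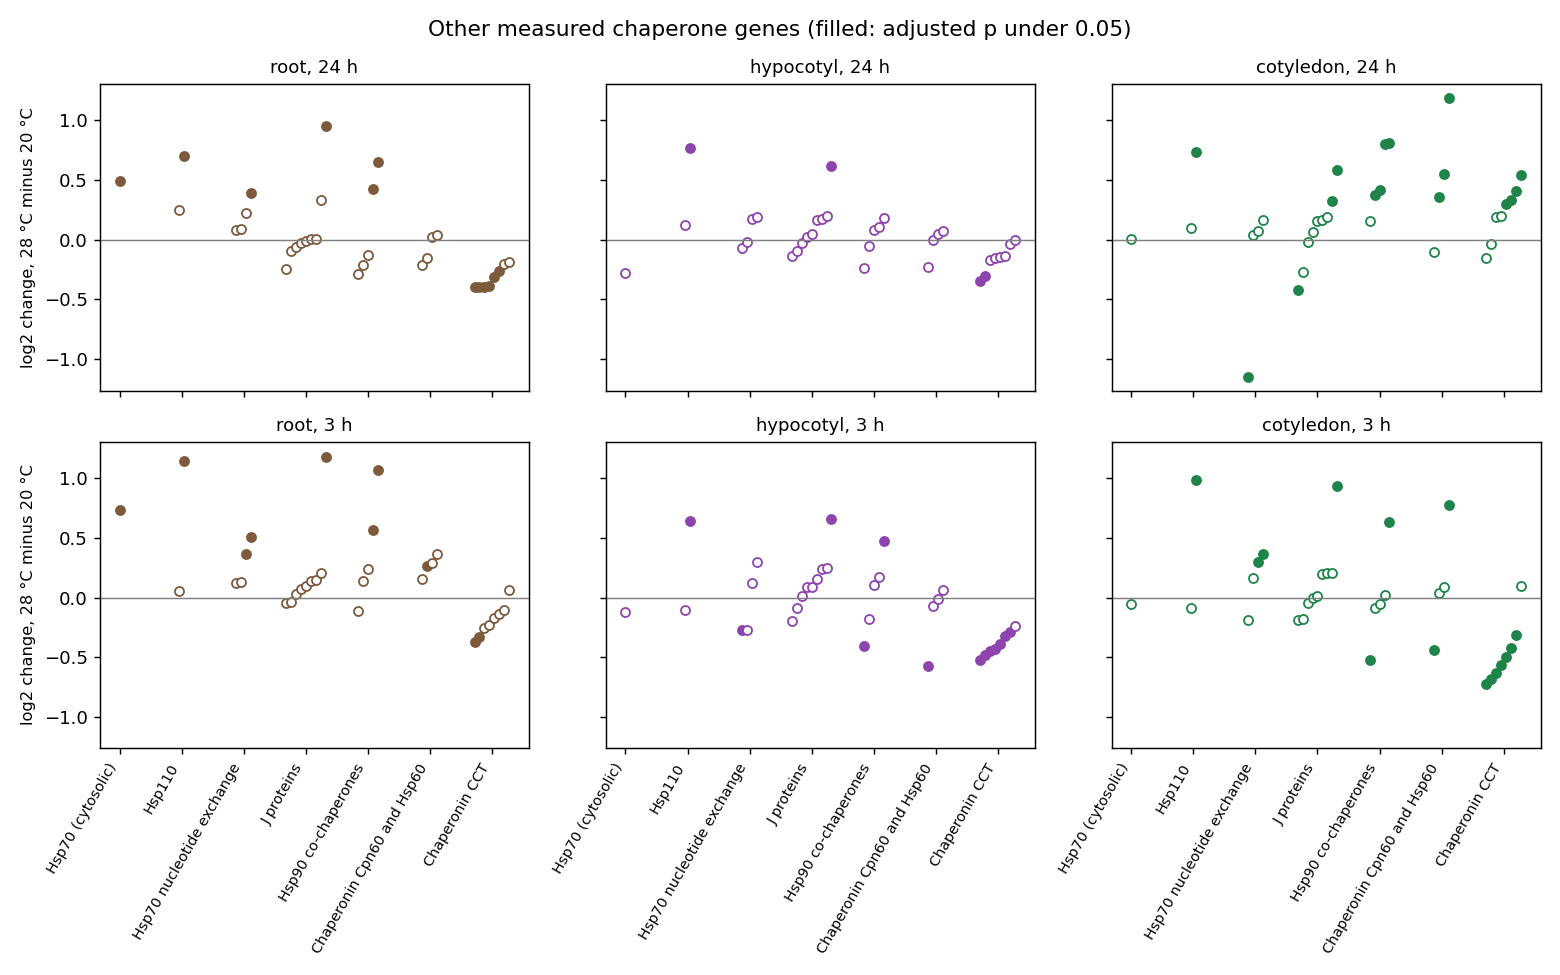
Log2 change at 28 °C against 20 °C (vertical axes) of the 33 other measured chaperone genes, grouped by list (horizontal axes) and ordered by size within a list, in 6 panels for organ and time. Filled points passed at a limma adjusted p under 0.05. The CCT subunits at the right of each panel lie mostly below 0 except in cotyledons after 24 h, and only single genes of the other lists exceed 1 log2 unit.

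Over the 12 group means the 8 genes varied together to different degrees. Pearson's r over the 28 pairs had a median of 0.71, with the highest for AT5G48570 and HSA32 (0.96), Hop3 and AT2G20560 (0.94) and, for the genes with a shoot excess, SGT1A and Cpn60beta2 (0.90). The lowest was that of Fes1A and SGT1A (-0.21). These points share their arrays, and the genes were chosen for a common temperature change, so the values are descriptions. Deviations of single arrays from their group means, over 35 arrays, gave a median r of 0.08 over the 28 pairs, with a range of -0.33 to 0.54. Of these pairs 19 were positive, and the median r of the 8 genes with all other genes was 0.006.

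Among all other genes, those most like the mean of the 8 over the 12 group means were AT5G25450 (r = 0.94), AT3G24100 (0.92), AT5G38730 (0.91), AT5G47830 (0.91) and CUTA (0.91). AT5G25450 was also first in likeness to AT5G48570 (0.95) and HSA32 (0.95). It changed by 3.31 and 2.81 in roots, 1.78 and 1.33 in hypocotyls and 3.14 and 1.35 in cotyledons after 24 h and 3 h. The cotyledon change was thus the larger after 24 h, as for AT5G48570. In roots the 2 genes went opposite ways between times, as AT5G48570 changed by 4.38 after 24 h and 5.26 after 3 h. AT5G51440 was first for AT2G20560 (0.98), AT1G35660 for Hop3 (0.97), AT3G26450 for Cpn60beta2 (0.97), AT4G39235 for SGT1A (0.95), AT5G09430 for Fes1A (0.91) and AT1G76010 for Hsp70-2 (0.86). Hsp70-2 thus had the least close match of the 8.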

How the data were processed

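Expression was measured on 35 Affymetrix arrays hybridised with biotinylated cRNA from RNA of dissected roots, hypocotyls and cotyledons, extracted with a column kit and treated with DNase. The authors deposited log2 values per probe set, made with RMA, and list limma among their tools, per the submitters' processing notes, with no versions. Which arrays were normalised together is not given in the sources used here, and RMA's quantile step sets the distributions alike, so changes are relative to the other genes of an array. The table holds 22746 probe sets with values from 2.20 to 14.3. Of these, 13513 name 1 gene, 503 name several and were left out, and 8730 are not listed in the probe annotation used. For 147 genes with several probe sets the set with the highest mean stood for the gene, giving 13355 genes. Of these, 13285 matched RefSeq TAIR10.1 by gene identifier, which gave their symbols and the locus codes that define a gene here.

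One linear model of 12 group means took in all 35 arrays, using lmFit, contrasts.fit and eBayes of limma 3.58.1 (R 4.3.3), with 23 residual degrees of freedom. Two-sided p-values were adjusted by Benjamini-Hochberg over all 13355 genes within a comparison, with a threshold of 0.05. Errors of changes are standard errors from this fit. The number of arrays limits the precision, with a median standard error of 0.105 for a warm change (0.117 for roots after 3 h) and 0.0743 for an organ difference. On simulated data with 200 of 13355 genes changed, 65% to 96% of the changes set at 0.5 log2 were found across the 12 comparisons. Of those set at 1 log2, 98% to 100% were found, and 3.47% to 9.23% of calls were wrong. The simulated noise was independent between genes, and the real comparisons called 56 to 10220 genes, so these rates need not hold for the real data.

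The 8 genes, the chaperone lists and the rules were chosen with earlier results of these data known. Tests of the 8 genes between cool roots and the shoot organs had been planned, but root against shoot was part of the choice, so these differences carry no p-value. Named among the other genes were up to 4 per list with the largest passing change, close relatives of the 8 on the array, and the genes most like the 8 over the group means. Groups with the same replicate number share only that number: over 12 comparisons the deviations of same-numbered samples correlated at -0.20 to 0.27. Alternatives were centring each array on its median or on 4 measured reference genes of a list of 9, leaving out the 25% of genes with the lowest means, eBayes with trend and robust settings, the replicate number as a block, fits of only the compared arrays, and leaving out each array in turn.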

Additional observations from a re-analysis of the deposited data

Results flagged for a closer look

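A total of 46 tests of a difference between organs or between times passed at a limma adjusted p under 0.05. They came out of 24 for the 8 genes and 180 for 20 named others, and no explanation was tested for any of them. The 20 others include genes named for their large passing warm changes, so their 41 of 180 is set by that choice. Over all genes 0.659% to 20.1% passed in the 9 kinds of difference tested for these others. For the 8 genes, 5 of these differences concern the change between the 24 h and 3 h harvests at 20 °C. The effect in roots minus that in cotyledons was 0.93 for AT5G48570, 0.55 for Fes1A, -0.69 for SGT1A and 0.42 for Hsp70-2, and the effect in hypocotyls minus that in cotyledons was 1.14 for AT5G48570. Those with roots set root against shoot, which was part of the choice of genes, so nothing is read from their passing. Groups hold 2 or 3 arrays, too few to look for single outlying samples.

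The other 41 concern changes at 28 °C. After 3 h the root change minus the cotyledon change was 0.78 for AT3G09440, 0.59 for AT1G23100, 0.47 for AT5G16070, 0.54 for AT3G03960, 0.44 for AT3G12050 and 0.54 for Hop2. The root change minus the hypocotyl change after 3 h was 0.85 for AT3G09440, 0.63 for AT1G36390, 0.52 for ATERDJ3B, 0.73 for AT1G23100 and 0.60 for AT3G12050. For Cpn60beta3 the hypocotyl change minus the cotyledon change after 3 h was -0.71.

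After 24 h the root change minus the cotyledon change was 0.49 for AT3G09440, 1.37 for Fes1B and 0.37 for ATERDJ3B. It was negative for 7 genes, at -1.17 for Cpn60beta3, -0.76 for AT1G23100, -0.32 for AT3G60210, -0.85 for AT5G16070, -0.50 for AT3G03960, -1.09 for SQN and -0.50 for Hop1. The root change minus the hypocotyl change after 24 h was 0.77 for AT3G09440 and 0.47 for AT3G12050. The hypocotyl change minus the cotyledon change was 1.08 for Fes1B, -1.19 for Cpn60beta3, -0.78 for AT1G23100, -0.28 for AT3G60210, -0.68 for AT5G16070, -0.44 for AT3G03960, -0.63 for AT3G12050 and -0.72 for SQN.

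Within cotyledons the warm change after 24 h minus that after 3 h was -1.45 for Fes1B, 0.99 for AT1G23100, 0.27 for AT3G60210, 0.86 for SQN and 0.90 for Hop1. For 4 CCT subunits it was 1.26 (AT5G16070), 0.99 (AT3G03960), 0.48 (AT1G24510) and 0.53 (AT5G20890).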

How the results depend on the processing

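Beside the fits without single arrays, 1954 of 2004 values kept their direction and their side of the threshold, or moved by less than the replicate spread. In the fits without single arrays 1772 of 1859 did. With each array centred on the reference genes the cool differences of roots from hypocotyls for Hop3 (-0.17), and of roots from cotyledons (-0.38) and hypocotyls (-0.33) for Fes1A, changed sign. That centring moved the median of all genes by -0.55 for roots against cotyledons and -0.47 for roots against hypocotyls. It also gave 6 of the 33 other chaperone genes higher in hypocotyls after 3 h and 1 lower after 24 h, 10 higher in cotyledons after 3 h, and 0 lower in roots after 3 h and 2 after 24 h, and fits of only the compared arrays gave 1 lower in hypocotyls after 24 h and 0 lower in roots after 3 h. Median centring gave 5 of the 8 genes differing between cool hypocotyls and cotyledons, with AT5G48570 (-0.37) and HSA32 (-0.27) added. The all-gene share of higher calls moved under the reference centring from 51.1% to 24.6% for roots against cotyledons and from 59.5% to 19.6% for roots against hypocotyls, and under median centring from 45.5% to 24.4% for hypocotyls against cotyledons. The causes were not tested. Without single arrays the falls among the 33 others ranged from 5 to 10 in hypocotyls after 3 h, 0 to 2 in hypocotyls after 24 h and 0 to 2 in roots after 3 h, and the rises in roots after 3 h from 5 to 8. The replicate block changed the harvest call of Hop3 in cotyledons (limma adjusted p = 0.0335), and gave 1914 calls over all genes in place of 1954 in warm hypocotyls after 3 h. Replicate numbers were no pairing by the labels or by the correlations, which were over 0.1 in every pair for 1 of 12 comparisons.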

Other observations

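At 20 °C the other measured chaperone genes were more often higher than lower in roots, but not in every list. Of 33, 23 were higher and 4 lower in roots than in cotyledons by limma at an adjusted p under 0.05 (39.1% of all genes were higher and 37.5% lower), with a median difference of 0.88 log2 units against -0.03 over all genes. Against hypocotyls 22 were higher and 5 lower in roots (35.9% and 24.5% of all genes, median 0.64), and 23 were higher and 5 lower in hypocotyls than in cotyledons (30.2% and 36.1%, median 0.44). All 8 measured CCT subunits were higher in roots than in cotyledons (median 1.60), in roots than in hypocotyls (median 0.81) and in hypocotyls than in cotyledons (median 0.85). So were all 5 other co-chaperones of Hsp90, with medians of 1.19, 0.69 and 0.53, and SQN among them was 2.94 log2 units higher in roots than in cotyledons. The remaining lists varied. Of 4 nucleotide exchange factors 1 was higher and 2 lower in roots than in cotyledons (median -1.37), and likewise than in hypocotyls (median -1.16). Of the 4 genes of Cpn60, Hsp60 and their partners 2 were higher and 2 lower in roots in each of the comparisons with a shoot organ. Of 9 J proteins 5 were higher in roots than in cotyledons and 5 than in hypocotyls, and of 2 Hsp110 genes 2 were higher than in cotyledons and 1 than in hypocotyls, while AT3G09440 was lower in roots than in hypocotyls (-0.30). The counts over these lists under other scalings were chosen after seeing the data. With each array centred on the reference genes the counts over the 33 genes became 19 higher and 10 lower, 16 and 13, and 21 and 7, while CCT kept 8, 7 and 8 higher and the Hsp90 co-chaperones 5, 3 and 5. With each array centred on its median hypocotyls against cotyledons gave 18 higher and 9 lower.

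Relatives within a family lay at opposite ends. Cpn60beta4 averaged 4.66 in cool roots, against 8.96 in cotyledons, a difference of -4.30 ± 0.08 (SE, n = 6 each). Cpn60beta3 averaged 9.36 in cool roots, against 6.74 in cotyledons (2.61 ± 0.08). Fes1B averaged 4.31 in cool roots, against 8.19 in cotyledons (-3.88 ± 0.07), while the difference of Fes1A was 0.16 and, with each array centred on the reference genes, -0.38. In cool cotyledons 13 of the 33 genes were lower and 0 higher at 24 h than at 3 h by limma (15 and 1 at an unadjusted p under 0.05), among them 7 CCT subunits (median -0.35) and AT3G09440 (-0.59). Under the reference centring 8 of the 33 and 5 of the CCT subunits were lower at 24 h. In cool hypocotyls 2 were lower at 24 h and in cool roots 0 passed in either direction by limma, with 1 higher and 1 lower at an unadjusted p under 0.05.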
